A study of Mus musculus with 4 samples.

Results

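The replication-dependent histone genes of the mouse were taken here as every gene whose symbol starts with Hist1h, Hist2h, Hist3h or Hist4 in the deposited gene table. The rule found 69 gene identifiers out of 27998, under 68 symbols, because Hist2h2bb is listed under 2 identifiers. By symbol the members were 6 linker histone H1 genes, 19 H2A genes, 19 H2B genes, 12 H3 genes and 13 H4 genes. In the GENCODE annotation used here, 1 of the Hist2h2bb identifiers is a long non-coding RNA gene and Hist1h2al is a processed pseudogene. Of the 67 identifiers that could be placed on GRCm38 (the assembly also called mm10), 53 lay on chromosome 13, 11 on chromosome 3, 2 on chromosome 11 and 1 on chromosome 6. They were followed in immune cells from B16F10 tumours, a mouse melanoma line, here carrying the model antigen ovalbumin and injected under the skin. The hosts were wild-type C57BL/6 mice or mice whose T cells lack miR-155 (miR-155 TCKO, a T cell conditional knockout), and tumours were taken on day 9 or day 12. Tumours of a group were pooled before live CD45+ cells were sorted and run on a droplet platform that counts transcripts at their 3′ ends with unique molecular identifiers (UMIs). No group was replicated, since each pairing of genotype and day is 1 library, and the Cre driver of the knockout is not given in the sources used here. The pools hide differences between mice, and neither genotype nor day can be told apart from differences between single library preparations.

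Replication-dependent histones package newly copied DNA, and their genes are switched on when a cell enters S phase. Their mRNAs are unusual in ending not in a poly(A) tail but in a short stem-loop, which the protein SLBP binds and at which the U7 small nuclear RNP directs cleavage. Some of these genes also give longer transcripts that run past the stem-loop to a poly(A) signal, in particular in cells that have stopped dividing. Oligo-dT priming captures poly(A) tails, so the UMIs counted here describe polyadenylated histone transcripts and any transcript primed within an A-rich stretch. Those 2 sources cannot be told apart in these counts.

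The stem-loop is the element that separates the 2 kinds of transcript end, so it is shown for 6 members on which the results below turn. Each line reads 5′ to 3′ on the gene's own strand, from GENCODE transcripts on GRCm38, and capitals mark the 16 bases of the stem-loop.
Hist1h2ap: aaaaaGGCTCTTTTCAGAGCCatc
Hist1h2ae: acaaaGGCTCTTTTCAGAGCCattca
Hist1h1c: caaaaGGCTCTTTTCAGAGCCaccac
Hist1h1e: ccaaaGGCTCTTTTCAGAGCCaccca
Hist1h4i: ttaaaGGCCCTTTTTAGGGCCaccac
Hist3h2a: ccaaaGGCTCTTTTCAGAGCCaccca
The Hist1h2ap stretch lies at chr13:21833026-21833049 on the minus strand, in the 3′ UTR, and the annotated transcript stops 3 bases after the stem-loop. The Hist3h2a stretch lies at chr11:58955167-58955192 on the plus strand, and there the annotated transcript goes on for 1643 bases and has a poly(A) signal near its end. Hist1h2ap, Hist1h2ae, Hist1h1c, Hist1h1e and Hist3h2a carry the same capitals although their annotated ends differ. Hist1h1c runs on for 840 bases, Hist1h1e for 1153 and Hist1h4i for 330. A stem-loop with at most 1 mismatch was found in 43 members, and 41 of those had none.

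The upstream sequence is shown for 2 members that moved in opposite directions with division, Hist1h1b and Hist3h2a. Each line holds the 250 bases before the RefSeq start (GRCm38.p6), 5′ to 3′ on the gene's strand, with capitals for motif matches. The motifs searched, each on both strands, were CCAAT, the histone octamer and TATAAA. The octamer reads ATTTGCAT.
Hist1h1b: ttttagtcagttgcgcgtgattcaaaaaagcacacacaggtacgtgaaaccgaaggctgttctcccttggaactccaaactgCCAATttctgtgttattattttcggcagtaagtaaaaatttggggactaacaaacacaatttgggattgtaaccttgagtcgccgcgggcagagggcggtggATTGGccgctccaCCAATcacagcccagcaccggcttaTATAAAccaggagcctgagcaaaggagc
Hist3h2a: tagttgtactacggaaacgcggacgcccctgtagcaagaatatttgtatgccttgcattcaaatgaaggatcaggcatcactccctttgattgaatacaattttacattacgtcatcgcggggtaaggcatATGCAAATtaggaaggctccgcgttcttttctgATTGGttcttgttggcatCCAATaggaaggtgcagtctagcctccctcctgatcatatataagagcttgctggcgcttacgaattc
The Hist1h1b window is chr13:21780626-21780875 on the minus strand and the Hist3h2a window is chr11:58954435-58954684 on the plus strand. CCAAT was found in both windows, TATAAA in that of Hist1h1b and the octamer in that of Hist3h2a. The RefSeq table had a promoter for 60 members. In their 250 bases CCAAT occurred in 81.7% of members against 34.5% of all 27025 promoters, TATAAA in 48.3% against 13.0%, and the octamer in 12 of the 60 members against 1.61%. The octamer was found in 38.9% of H2A and 35.7% of H2B promoters and in none of the H1, H3 or H4 promoters. CCAAT was found in every H1, H2A and H2B promoter, in 80.0% of H3 promoters and in 25.0% of H4 promoters. These are matches of letters, and many members sit in 1 cluster and descend from common copies, so they are not independent.

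After filtering, the wild-type day 9, knockout day 9, wild-type day 12 and knockout day 12 libraries held 1777, 3737, 3673 and 2035 cells, and 4 values in a row below follow this order. Median UMIs per cell were 9658, 7752, 7392 and 7865, and any 2 libraries shared 4 to 16 cell barcodes. Mir155hg, the host transcript of miR-155, had 94 UMIs in T cells of the wild-type day 9 library and 24 in those of the wild-type day 12 library. It had 0 UMIs in T cells of both knockout libraries, which allows up to 0.902 per 1000000 UMIs on day 9 and 2.92 on day 12 (exact Poisson interval at 95%, here and below covering counting error only). The wild-type day 9 library stood apart: 25.6% of its cells were cycling by the definition below, against 4.39%, 9.97% and 7.96% of the others.

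The members together gave 44214 UMIs. The wild-type day 9 library had 18604 of them, or 868 CPM (UMIs per 1000000 UMIs of the cells named), the knockout day 9 library 6865 or 203.0, the wild-type day 12 library 10649 or 359.5, and the knockout day 12 library 8096 or 433. Their Poisson intervals did not overlap, and the highest library was the one with the most cycling cells. The UMIs were spread very unequally over the members. No UMI was found for 5 members (Hist1h2br, Hist1h2bq, Hist1h4m, Hist1h2aa and Hist1h2ba), 41 had fewer than 200, and the other 23 held 93.8% of the total. The H2A genes gave 51.0% of the UMIs, H1 25.2%, H2B 11.1%, H4 9.62% and H3 3.11%. These counts are not scaled for length and say nothing of the amount of each protein. Because 34 members share more than 50% of the 50-base words of their transcript ends with other genes, UMIs of near-identical copies may have been lost or moved between them, and values of such members are uncertain.

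The 2 most abundant members behaved differently across libraries. Hist1h2ap, an H2A gene whose end is shared fully with other copies, had 493, 21.7, 62.4 and 77.3 CPM. It was high in the wild-type day 9 library and gave 33.0% of all member UMIs. Hist1h1c, the gene of linker histone H1.2, had 40.9, 38.1, 51.1 and 88.7, highest in the knockout day 12 library. Hist3h2a, an H2A gene outside the large cluster, had 23.3, 41.7, 59.7 and 49.9 and was lowest where Hist1h2ap was highest. Hist1h1e, the gene of linker histone H1.4, had 42.3, 17.4, 35.2 and 37.6, low in the knockout day 9 library only. Its annotated transcript overlaps that of Hist1h2be on the same strand, so its UMIs are uncertain as well. Hist1h1b, the gene of linker histone H1.5, had 39.6, 4.67, 21.8 and 19.6, an order like that of the cycling shares.

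**Figure D1:**
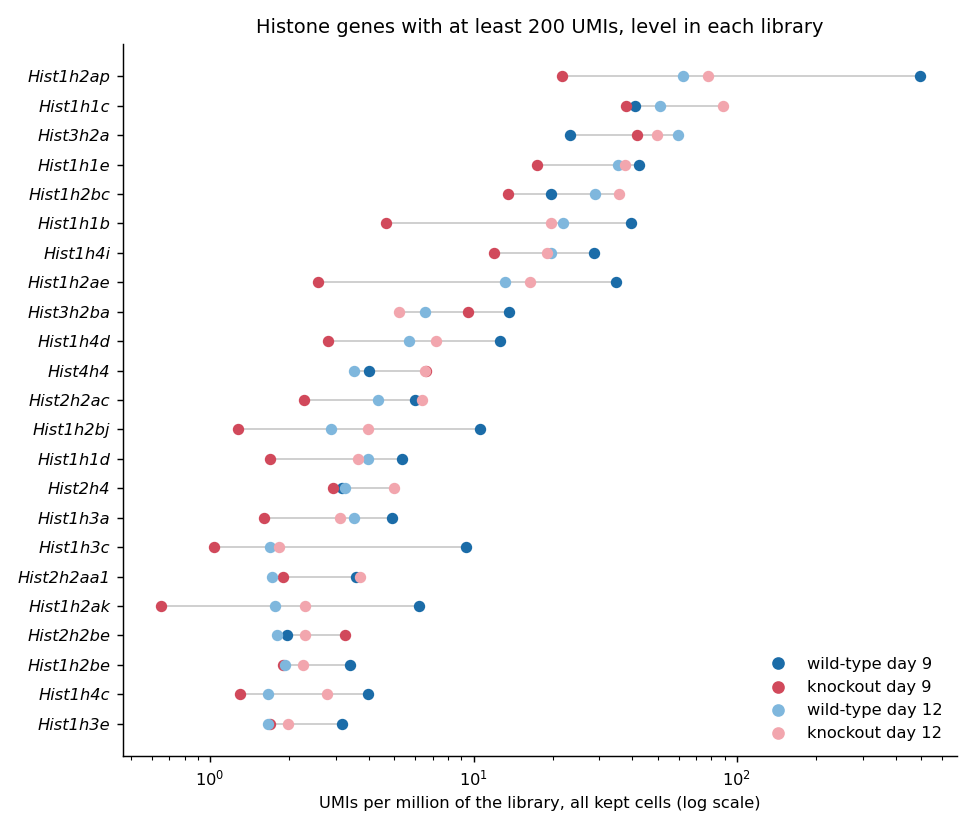
Level in CPM (log scale) of the 23 histone genes with at least 200 UMIs, 1 point per library; there are no replicates. Hist1h2ap reached 493 in the wild-type day 9 library against 21.7 to 77.3 in the others, whereas Hist3h2a was lowest there at 23.3.

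Division was read from 2 gene lists that hold no histone gene: 20 genes of DNA replication (S list) and 22 genes of G2 and mitosis (G2M list). A cell was called cycling when either list reached 10 per 10000 of its UMIs. Of the Hist1h2ap UMIs, 93.9% were in cycling cells, and of the Hist1h1b UMIs 92.0%. The shares were 85.1% for Hist1h2ae, 51.3% for Hist1h1e, 31.9% for Hist1h2bc, 20.2% for Hist1h1c, 14.95% for Hist4h4 and 7.27% for Hist3h2a. These shares also depend on how many UMIs the cycling cells hold. With all libraries pooled, Hist1h1c had 56.25 CPM in cycling and 50.43 in other cells, and Hist1h2bc had 39.84 and 19.39. The shares differed by library too: for Hist1h1e they were 75.3%, 18.7%, 53.2% and 44.7%. By pooled level the histone genes lay along a wide range, from Hist1h2ap at 714.6 and 10.5 CPM to Hist3h2a at 17.45 and 50.65.

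The annotated 3′ end differed along this range. The annotated transcript of 22 members extended more than 75 bases past the stem-loop, and that of 21 ended near it. Another 13 had almost no annotated untranslated sequence. Most of these were coding sequence only, but the non-coding Hist2h2bb identifier and the pseudogene Hist1h2al were among them. The other 11 had no stem-loop in the transcript used and 2 were not matched. With all libraries pooled, members that extend past the stem-loop gave 76.6% of the members' CPM in non-cycling cells and 26.1% in cycling cells. Of their 165.0 CPM in non-cycling cells, Hist3h2a had 50.65 and Hist1h1c 50.43, so the 76.6% is mostly that of these genes. Members that end near the stem-loop gave 10.6% and 59.8%. Hist1h2ap alone had 714.6 of their 810.4 CPM in cycling cells. The share in cycling cells is thus mostly that of 1 gene, whose end is shared fully with other copies. This gene also lowers the cycling share of the members that extend past the stem-loop. Among the 23 members with 200 or more UMIs, 9 have AATAAA or ATTAAA in the last 40 annotated bases. Their median log2 ratio of cycling to non-cycling level was 0.37, with a range from -1.54 to 4.65. The other 14 had a median of 2.35 and a range from 1.04 to 6.09. The ranges overlapped: Hist1h2ae carries a poly(A) signal and was among the members most tied to division. These are descriptions over genes that share sequence and libraries, with no test, and the pooled ratio leans on the wild-type day 9 library, which holds the most cycling cells.

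**Figure D2:**
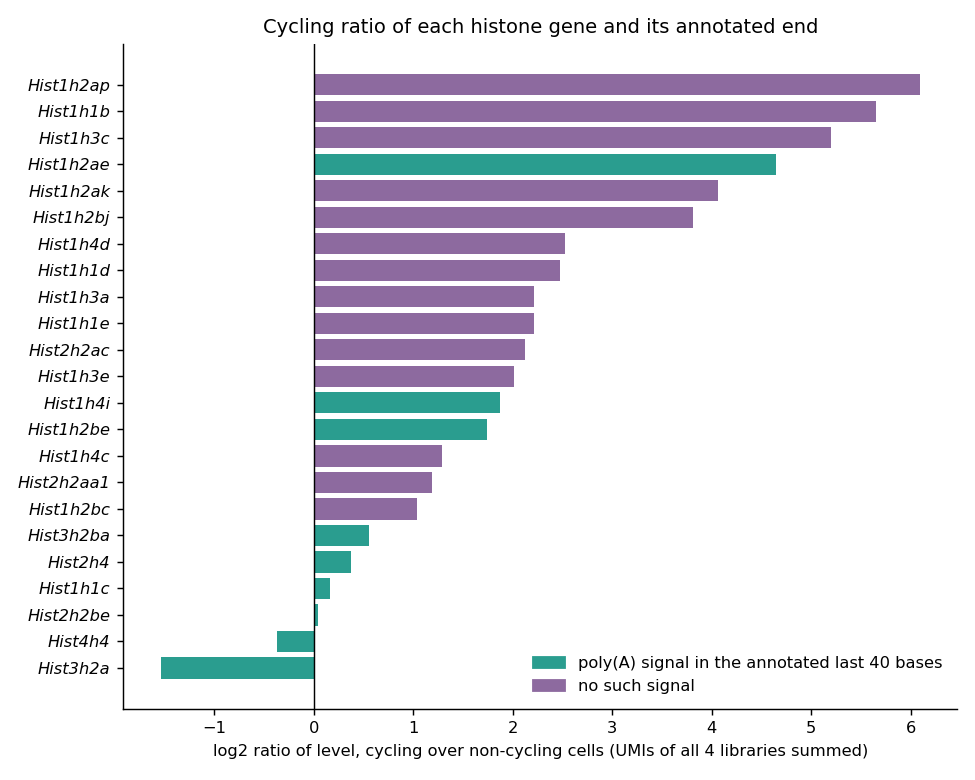
Log2 ratio (horizontal axis) of the level in cycling cells to that in non-cycling cells, UMIs of all 4 libraries summed, with 1 bar for each of the 23 histone genes with at least 200 UMIs and colour for a poly(A) signal in the last 40 annotated bases. The 9 genes with a signal had a median of 0.37, the 14 without one 2.35, and Hist3h2a was lowest at -1.54.

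The difference between cycling and non-cycling cells was then tested over the 4 libraries, each as its own pair, with edgeR's quasi-likelihood test and Benjamini-Hochberg adjustment over all genes. Of 40 members that passed the filter on low counts, 32 were higher in cycling cells and 1 was lower at an adjusted p under 0.05. Among all 11218 genes tested 18.6% were higher and 19.0% were lower. The median log2 difference was 2.09 over the members tested and -0.02 over all genes. Members counted in cycling cells only could pass the filter through that group, so these counts describe the tested members and not all 69. Without the filter 64 members could be tested, of which 42 were higher and 1 lower, against 10.5% and 13.6% of 17510 genes. All kept cells entered the fit, also those with markers of more than 1 class.

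Among the linker histones, Hist1h1b had 88.7, 37.5, 125.5 and 137.5 CPM in cycling cells and 1.98, 1.83, 1.57 and 2.57 in the others. The groups were far apart in every library, and the log2 difference was 5.40 ± 0.30 (SE over 4 libraries; adjusted p = 2.02e-05, edgeR). Hist1h1a rose by 3.82 on the log2 scale, Hist1h1d, the gene of H1.3, by 2.25 and Hist1h1e by 2.04. Hist1h1c had 46.5, 44.2, 57.8 and 105.4 in cycling cells and 36.7, 37.5, 49.8 and 86.3 in the others. Each library was slightly higher in cycling cells, but the difference of 0.19 ± 0.09 missed the threshold (adjusted p = 0.153, edgeR). In T and NK cells alone it was -0.02, and in myeloid cells alone 0.41 (adjusted p = 0.0434, edgeR). So 4 of the 5 H1 genes tested were called, and the exception was the most abundant of them.

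Among the core histones, Hist1h2ap had 1112, 181.5, 339 and 529 CPM in cycling cells and 19.6, 7.87, 8.40 and 11.9 in the others. The cycling values were higher in all 4 libraries, by 5.21 ± 0.24 on the log2 scale (adjusted p = 8.24e-06, edgeR), and by 4.998 without the wild-type day 9 library. Hist1h2ae rose by 4.22 and Hist1h2ak, another clustered H2A gene, by 3.60. For H2B, Hist1h2bj rose by 3.38, Hist1h2be by 1.61 and Hist1h2bc by 1.11. For H3, Hist1h3c rose by 4.72, Hist1h3a by 2.01 and Hist1h3e by 1.88. For H4, Hist1h4d rose by 2.14 and Hist1h4i by 1.69, whereas Hist1h4c, with a difference of 0.75 ± 0.39, was not called. Each of the 5 histone classes therefore held members that rose in dividing cells, with the H4 genes at smaller differences than the leading H1, H2A and H3 genes.

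Of the 8 tested members outside chromosome 13, 3 were higher in cycling cells, 1 was lower and 4 were not called. Hist3h2a had 11.7, 23.4, 20.4 and 27.1 CPM in cycling cells against 32.2, 43.2, 67.4 and 53.2 in the others. It was lower in cycling cells in every library, by -1.36 ± 0.15 on the log2 scale (adjusted p = 0.000642, edgeR), the single member called lower. Within T and NK cells alone the difference was -1.15, and within myeloid cells alone -1.21. Its neighbour Hist3h2ba (H2B) differed by 0.21 ± 0.18, Hist4h4 (H4, chromosome 6) by -0.30 ± 0.26, and Hist2h4 and Hist2h2be, both on chromosome 3, by 0.33 ± 0.31 and 0.23 ± 0.36. None of these 4 was called. The 3 that rose were Hist2h2ac (H2A, 1.98 ± 0.20), Hist2h3b (H3, 1.57 ± 0.51) and Hist2h2aa1 (H2A, 0.96 ± 0.26), all on chromosome 3, and the call of Hist2h2aa1 was lost without the wild-type day 9 library (adjusted p = 0.0906, edgeR).

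Cells above the threshold in 1 list only, or in both, were then compared, and their position in the cycle was read from these lists alone. Summed over the members, cells past neither list had 192.7, 173.8, 228.6 and 292.6 CPM, cells past the S list only 462, 179.3, 332 and 244.4, cells past both 2485, 917, 1627 and 2428, and cells past the G2M list only 871, 632, 1020.0 and 1355. In each library the cells past both lists were highest. In the knockout libraries, cells past the S list only were near those past neither on day 9 and below them on day 12. The class makeup of the states also differed between libraries. Of cells past the S list only, 74 of 117 were CD8 T cells in the wild-type day 9 library and 16 of 90 in the knockout day 9 library. Against the S list alone, 15 of 18 members tested were higher in cells past both, where 4.61% of all genes were, and 27 of 63 without the filter on low counts, where 3.67% were. Against the S list alone, 8 of 10 were higher in G2M-only cells, where 4.52% of all genes were, and 12 of 61 without the filter, where 3.84% were. Against G2M-only cells, 5 of 15 were higher in cells past both (6.41% of all genes) and 2 were lower (5.25%), and without the filter 11 of 63 (5.46%) and 2 of 63 (4.89%). A member could pass the filter through the state in which it was high, so the filtered counts are descriptions of the members tested. The counts of these within-cycle comparisons fell when the T and NK or the myeloid cells were fitted alone, and the comparisons with cells past both lists were added after the data had been seen.

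**Figure D3:**
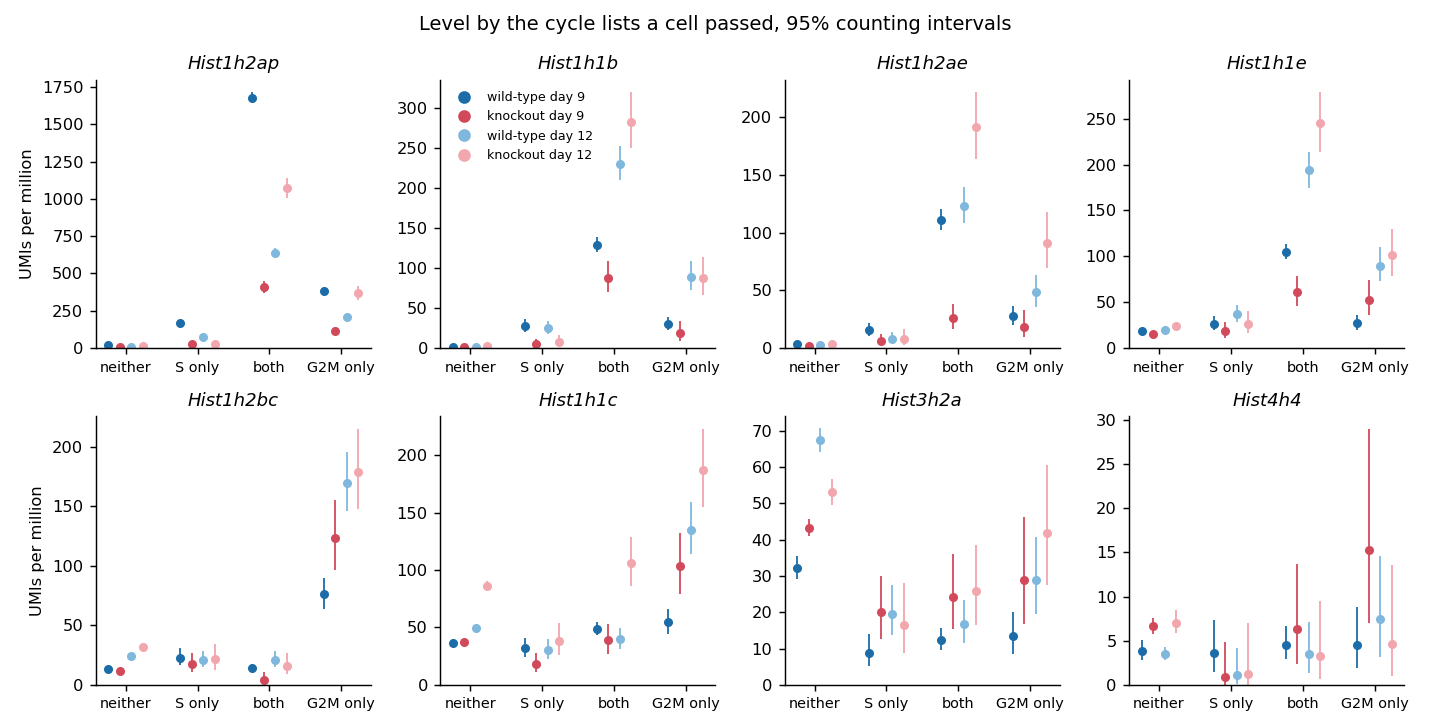
Level in CPM (linear axes that differ between panels) of 8 histone genes in cells past neither list, the S list only, both lists or the G2M list only, 1 point per library with Poisson intervals at 95%. Hist1h2ap and Hist1h1b peak in cells past both lists, Hist1h2bc in cells past the G2M list only, and Hist3h2a is highest in cells past neither.

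The 5 members higher in cells past both lists were Hist1h2ap, by 1.79 ± 0.11, Hist1h1b, by 1.78 ± 0.15, Hist1h2ae, by 1.39 ± 0.20, Hist1h1e, by 1.22 ± 0.22, and Hist1h3c, by 0.99 ± 0.25 (log2, SE). Hist1h2bc, an H2B gene, went the other way. It had 76.3, 123.7, 169.7 and 179.2 CPM in G2M-only cells and 13.9, 4.19, 21.1 and 16.2 in cells past both. The difference was -3.10 ± 0.26 (adjusted p = 0.000341, edgeR), and no library overlapped between the 2 states. Hist1h1c was also lower in cells past both, by -0.99 ± 0.24 (adjusted p = 0.0327, edgeR).

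The Hist1h2bc level in G2M-only cells was 388, 241.0, 208.7 and 288.2 CPM in myeloid cells and 57.1, 46.9, 45.1 and 15.6 in T and NK cells, the last from 2 UMIs. In myeloid cells alone the difference between both lists and G2M was -4.36 (adjusted p = 3.09e-05, edgeR), and in T and NK cells alone the gene did not pass the filter. When cycling cells were ordered by the share of G2M genes among their list UMIs, Hist1h2bc was highest in the cells with a share of 80% or more, at 74.6, 106.5, 170.1 and 165.3. Below a share of 60% it was between 9.47 and 31.3. Hist1h1b instead was highest between 40% and 60% in all 4 libraries. Hist1h2ap was highest between 60% and 80% in all 4.

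The genes that make, process and carry histones were taken from lists with no member in them. Of 13 histone mRNA processing genes, 12 were tested, 6 were higher in cycling cells and 1 was lower. Of all genes in that fit 18.6% were higher and 19.0% lower, which is the background for each list compared by cycling below. Slbp, which encodes the stem-loop binding protein, had 217.4, 203.7, 207.3 and 221.3 CPM in cycling cells and 75.8, 69.4, 65.6 and 68.9 in the others, a difference of 1.52 ± 0.08 (adjusted p = 1.5e-05, edgeR). Its level was alike in the 4 libraries within each state, unlike that of Hist1h2ap. Casp8ap2 (FLASH), which recruits the cleavage machinery, rose by 1.08, Lsm11 of the U7 RNP by 1.05, Npat, the activator of histone transcription, by 1.01, Cstf2 by 0.91 and Eri1, an exonuclease acting on histone mRNA ends, by 0.87. Lsm10, the other U7-specific protein, was lower by -0.39. Of 15 histone chaperones 13 rose, led by Asf1b (4.60) and Chaf1a (4.13), and Daxx, a chaperone of the replacement histone H3.3, was lower by -1.14.

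Replication-independent variants were split. Of 10, 9 were tested and 4 were higher in cycling cells: H2afx by 2.82, H1fx by 2.37, H2afv by 1.88 and H2afz by 1.16. The H1fx value rests on low levels, 1.29, 2.23, 2.27 and 1.69 CPM in cycling cells and 0.247, 0.450, 0.162 and 0.612 in the others. The 2 genes of H3.3, H3f3b and H3f3a, were lower by -0.46 and -0.26. All 11 genes of a list of S phase entry (E2f, cyclin E, Cdt1 and others) were higher. Cell states were defined by other cycle genes, so such lists describe the states and do not test them. In cells past both lists against G2M-only cells, Slbp was higher by 1.77, in the same direction as Hist1h2ap and opposite to Hist1h2bc. In that comparison 10 of the 15 chaperones were higher, where 6.41% of all genes were.

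Outside division, cell types were compared in non-cycling cells gated by marker genes (Cd3 genes for T cells, with Cd8b1 for CD8 T cells; Klre1, Ncr1 and others for NK cells; Fcgr1, Csf1r and others for monocytes and macrophages; Xcr1 and Clec9a for type 1 conventional dendritic cells, cDC1; Cd209a and Clec10a for cDC2; Ccl22 and Fscn1 for mature dendritic cells; Siglech for plasmacytoid dendritic cells, pDC). T cells without a clean CD8, CD4 or regulatory call form the class "other T". Each class was set against the mean of the others with edgeR's quasi-likelihood test and library as a block. Only 8 members had enough counts, and 30 of the 56 differences were called. Of all genes, 48.6% were called in either direction in CD8 T cells, 47.4% in NK cells, 39.2% in cDC1, 44.5% in cDC2, 54.9% in mature dendritic cells, 63.6% in monocytes and macrophages and 48.9% in other T cells, so that share of calls was near the background. Lyz2, a myeloid transcript, was counted at 118.7 CPM in CD8 T cells and 268 in NK cells against 20930.0 in monocytes and macrophages, and the part of such free RNA in low values was not tested.

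Both abundant linker histone genes differed between classes. Hist1h1e had 20.8, 46.3, 69.6 and 72.3 CPM in non-cycling NK cells and 14.8, 14.0, 12.1 and 16.5 in monocytes and macrophages. It was higher in NK cells by 1.53 ± 0.20 (adjusted p = 2.79e-07, edgeR) and in other T cells by 1.00 ± 0.23. It was lower in cDC1 (-0.95), mature dendritic cells (-0.85), cDC2 (-0.74) and monocytes and macrophages (-0.54). Hist1h1c had 62.3, 71.0, 177.4 and 165.0 in cDC2 and was higher there by 1.07 ± 0.19 (adjusted p = 4.87e-05, edgeR). It was also higher in mature dendritic cells (0.92) and cDC1 (0.63), and lower in monocytes and macrophages (-0.96) and CD8 T cells (-0.80). The 3 dendritic classes were thus higher in Hist1h1c and lower in Hist1h1e, and monocytes and macrophages were lower in both.

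Hist3h2a was higher in the myeloid classes than in T cells. It had 11.4, 15.7, 29.0 and 6.81 CPM in non-cycling CD8 T cells and 48.9, 39.8, 77.9 and 58.4 in monocytes and macrophages, with no overlap between the 2 classes. CD8 T cells were lower by -1.40 ± 0.20 (adjusted p = 1.51e-06, edgeR) and other T cells by -0.61. The 4 myeloid classes were higher, by 0.55 in monocytes and macrophages, 0.58 in mature dendritic cells, 0.62 in cDC2 and 0.67 in cDC1. The class makeup of cycling cells differs from that of the others, also within the T and NK cells and within the myeloid cells, and its part in the lower Hist3h2a level of cycling cells was not tested.

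Hist1h2bc was higher in 2 of the 3 dendritic classes. It had 47.7, 165.0, 78.0 and 39.6 in non-cycling cDC1, higher by 2.67 ± 0.38 (adjusted p = 1.82e-06, edgeR), and was higher in mature dendritic cells by 1.67. It was lower in other T cells (-2.38), CD8 T cells (-1.39) and NK cells (-1.32). Its 9.27, 1.68, 4.64 and 6.81 in CD8 T cells rest on 31, 3, 4 and 2 UMIs. Hist3h2ba was low in monocytes and macrophages, at 2.53, 1.38, 2.90 and 2.20, a difference of -1.92 ± 0.24 (adjusted p = 9.45e-08, edgeR). Its calls in CD8 T cells (0.76), other T cells (0.82) and NK cells (0.94) were lost in the fit described next, which adds the pDC and CD4 T classes and tests more genes.

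Plasmacytoid dendritic cells were higher in 4 members, all outside chromosome 13. They had too few cells in 1 library for the planned minimum of 20, and were fitted with a minimum of 15, chosen after the data had been seen, which also brought in CD4 T cells. Hist3h2ba had 96.9, 89.8, 79.3 and 59.0 CPM in pDC, above each other class in the fit in each library, and was higher by 3.31 ± 0.20 (adjusted p = 2.65e-16, edgeR). Hist4h4 had 34.9, 15.5, 74.1 and 39.4, from 9, 26, 14 and 6 UMIs, and was higher by 2.90 ± 0.46 (adjusted p = 2.66e-06, edgeR). Hist3h2a had 65.9, 119.5, 132.2 and 111.5 and was higher by 1.44 ± 0.19, and Hist2h4 was higher by 1.29 ± 0.50. In this fit 4 of 9 members were called in pDC, and 39.1% of all genes were. Hist4h4 and Hist2h4 did not pass the filter without the added classes, so they could pass through the class in which they were high, and the count of 4 is a description only. No cell of this class was cycling in any library (0 of 35, 0 of 233, 0 of 26 and 0 of 18, which allows up to 1.57% in the knockout day 9 library by an exact binomial interval). Hist1h1e and Hist1h2ap were not called there (-0.97 ± 0.42 and -0.96 ± 0.44).

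**Figure D4:**
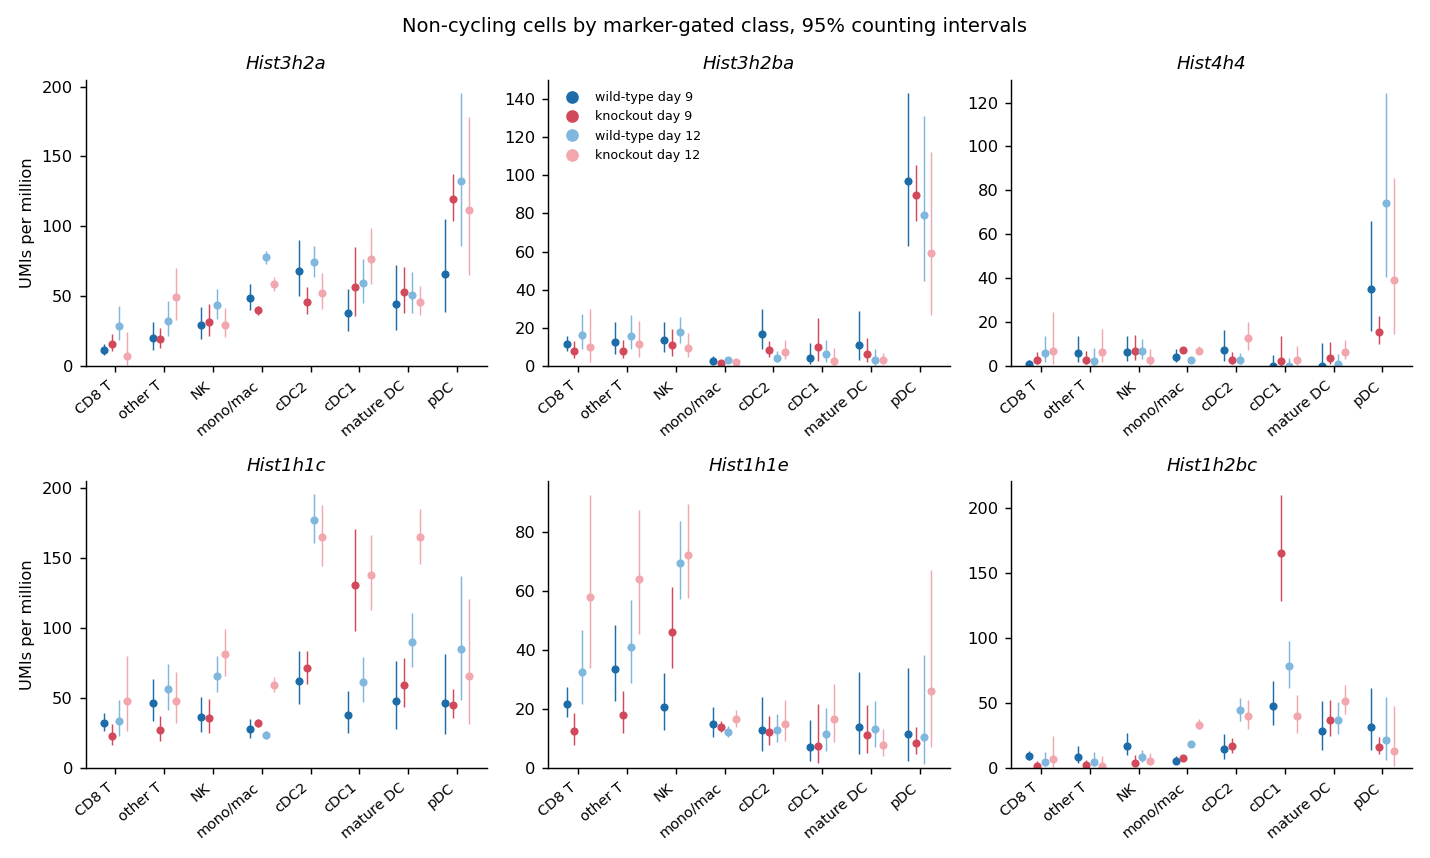
Level in CPM (axes differ between panels) of 6 histone genes in non-cycling cells of each gated class, 1 point per library with Poisson intervals at 95%. Hist3h2ba lay between 59.0 and 96.9 in plasmacytoid dendritic cells and between 1.38 and 18.0 in CD8 T cells, other T cells, NK cells, monocytes and macrophages and the other dendritic cells.

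Hist1h2ap was counted at a low level in non-cycling cells of every class in the fit. In the wild-type day 9 library it had 17.3 CPM in CD8 T cells, 17.3 in monocytes and macrophages, 22.5 in cDC1, 25.5 in cDC2, 23.2 in pDC and 24.9 in NK cells. In the knockout day 9 library the same classes had 11.2, 7.66, 12.3, 7.20, 2.38 and 11.8. Over these 6 classes it lay between 3.48 and 13.1 in the wild-type day 12 library and between 6.56 and 27.9 in the knockout day 12 library. The part of free RNA in these values was not tested. Of the 7 classes, NK cells alone were called, at 0.73 ± 0.22.

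Between genotypes, histone transcripts were fewer in knockout CD8 T cells on both days. Summed over the members, CD8 T cells had 1319 CPM in the wild-type day 9 library and 209.0 in the knockout day 9 library, a ratio of 0.159 (interval 0.144 to 0.174, counting error only). On day 12 the values were 733 and 377, a ratio of 0.515 (0.426 to 0.617). Hist1h2ap had 819 and 61.6 on day 9, a ratio of 0.0752, and 242.1 and 60.4 on day 12, a ratio of 0.2496. Hist1h1b had 65.7 and 12.6 on day 9 and 85.6 and 28.8 on day 12. The knockout library was lower on each day for both genes. Hist1h1c had 41.4 and 24.7 on day 9 and 39.6 and 57.6 on day 12, with no common direction. These sums over all CD8 T cells do not by themselves separate fewer cells that express a gene from less RNA per cell. Cycling and non-cycling CD8 T cells are given apart below.

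The share of cycling cells also differed between the libraries, and its part in these values was not tested. Of CD8 T cells, 317 of 693, 27 of 363, 57 of 244 and 4 of 62 were cycling, or 45.7%, 7.44%, 23.4% and 6.45%. The share was lower in the knockout on each day. The knockout day 12 share rests on 4 cycling cells, with an exact binomial interval from 1.79% to 15.7%. Whether the 2 knockout shares are alike therefore cannot be told. The summed members and Hist1h1b were higher in the knockout day 12 than in the knockout day 9 library. Median UMIs per CD8 T cell were 11815, 4903, 4671.5 and 4435, so the first library was also the deepest. With each cell thinned to 3000 UMIs and a minimum of 3 list UMIs, which left out 0, 6, 44 and 9 shallower cells, the shares were 51.5%, 10.1%, 30.0% and 13.2%. Within cycling CD8 T cells the summed members had a knockout to wild-type ratio of 0.371 (0.326 to 0.42) on day 9 and 0.732 (0.547 to 0.96) on day 12, the latter from 55 UMIs in 4 knockout cells. For Hist1h1b the ratio in cycling CD8 T cells was 0.684 (0.435 to 1.03) on day 9 and 0.972 (0.456 to 1.84) on day 12. For Hist1h2ap it was 0.254 (0.209 to 0.306) and 0.52 (0.288 to 0.868). In non-cycling CD8 T cells the summed ratio was 0.656 on day 9 and 1.33 on day 12, on opposite sides of 1.

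A model with genotype and day as additive terms can be fitted over the 4 libraries with 1 residual degree of freedom. It treats any difference of the genotype effect between days as noise, and each genotype and day is still 1 pool. In CD8 T cells this fit (edgeR's quasi-likelihood test) called 7 of 19 members lower in the knockout and none higher, where 4.51% of all genes were lower. Without the filter on low counts it called 11 of 62, where 3.68% of all genes were lower, and members could pass the filter through the wild-type libraries. The median log2 difference was -1.51 over the 19 members that passed and 0.02 over all genes. Those called were Hist1h2ae (-3.07 ± 0.52), Hist1h2ap (-2.97 ± 0.32), Hist1h2bc (-2.73 ± 0.58), Hist1h1d (-2.69 ± 0.74), Hist1h1b (-1.97 ± 0.28), Hist1h4i (-1.51 ± 0.36) and Hist1h1e (-1.08 ± 0.28). The Hist1h2bc call rests on few knockout UMIs. All T and NK cells of the knockout day 9 and day 12 libraries had 10 and 11 past neither list. They had 0 and 1 past the S list only, 0 and 0 past both and 4 and 2 past the G2M list only. In the same cells 14 of the 20 S list genes and 21 of the 22 G2M list genes were lower, and 0 of 12 histone mRNA processing genes were called. Among non-cycling CD8 T cells alone 0 members were called and Hist1h2ap differed by 0.10. Doubling the marker minimum of the gates left 4 calls and DESeq2's Wald test made 3.

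**Figure D5:**
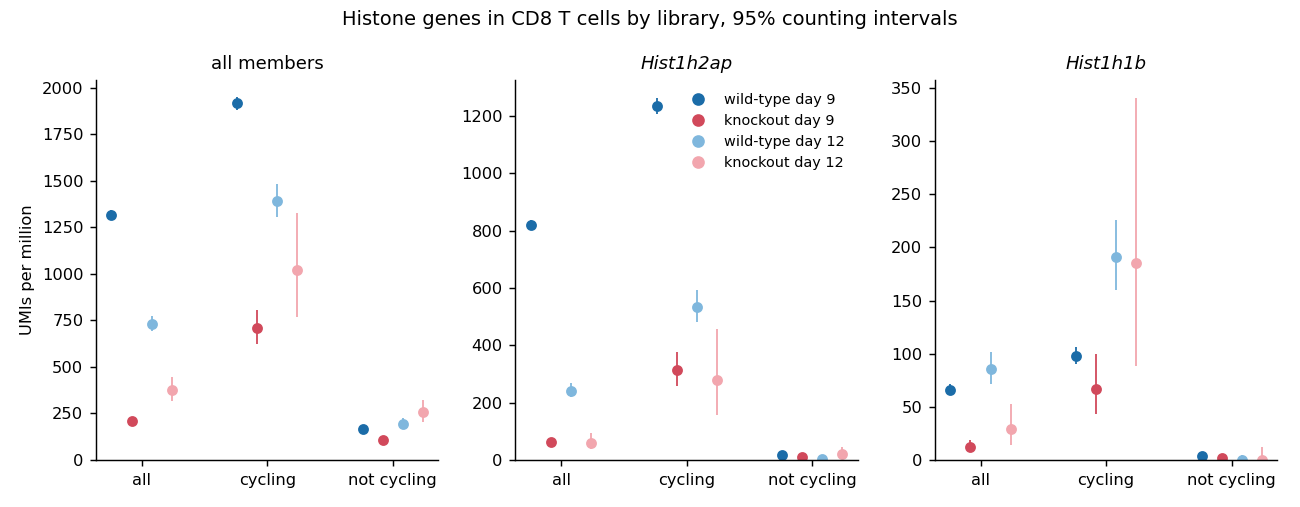
Level in CPM of the summed members, Hist1h2ap and Hist1h1b in all, cycling and non-cycling CD8 T cells, 1 point per library with Poisson intervals at 95%. In all CD8 T cells Hist1h2ap had 819 and 242.1 in the wild-type libraries and 61.6 and 60.4 in the knockout libraries, while its level in non-cycling CD8 T cells lay between 3.48 and 20.4.

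NK cells carried more histone transcripts on day 12 than on day 9. The members summed to 424.9 and 275.7 CPM on day 9 (wild-type, knockout) and 749.8 and 759 on day 12, without overlap between days. Hist1h1b had 12.6 and 7.54 on day 9 and 75.3 and 62.4 on day 12. Hist1h1e had 25.1 and 44.4 on day 9 and 115.7 and 102.3 on day 12. In the additive fit 7 of 15 members were higher on day 12, where 3.19% of all genes were, and 8 of 59 without the filter, where 2.03% were. The 7 were Hist1h1b (2.76 ± 0.27), Hist1h2bj (2.05 ± 0.53), Hist1h1e (1.64 ± 0.21), Hist1h2ae (1.51 ± 0.35), Hist1h2ap (1.25 ± 0.27), Hist1h4i (0.94 ± 0.26) and Hist1h1c (0.82 ± 0.21). The share of cycling NK cells was 9.14%, 6.94%, 14.95% and 18.1%, and 14 of the 20 S list genes were also higher on day 12. DESeq2's Wald test called 2 members, doubled gates 4, and non-cycling NK cells alone 1. A difference between days cannot be told apart from one between library preparations.

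In the other classes fitted, fewer members were called. A class was fitted for genotype and day only if each library held 50 or more of its cells. For this reason cDC1, mature dendritic cells, pDC, CD4 T cells and regulatory T cells were not tested. In cDC2, 3 of 11 members were higher on day 12 (2.02% of all genes): Hist1h1b (2.02 ± 0.50), Hist1h2ae (1.91 ± 0.52) and Hist1h1c (1.31 ± 0.19). Hist1h2ap was the 1 member lower in knockout cDC2, by -1.35 ± 0.23 (1.47% of all genes). Without the filter these counts were 3 of 54 (1.07%) and 1 of 54 (0.694%). DESeq2's Wald test called neither the 3 nor the 1. Of 17 G2M list genes tested in cDC2, 7 were also lower in the knockout and 0 higher, with a median of -1.29. Of 17 S list genes tested, 0 were called in either direction. The share of cycling cDC2 was 10.67%, 6.03%, 10.63% and 6.72%, lower in the knockout on each day. Its part in the Hist1h2ap difference was not tested. In monocytes and macrophages, 2 of 24 members were higher on day 12 (1.83% of all genes), Hist1h2ae by 2.58 ± 0.35 and Hist1h2bc by 1.92 ± 0.24, and 4 of 60 without the filter (3.66%). No member was called between genotypes in NK cells, monocytes and macrophages or other T cells, nor between days in CD8 or other T cells, with edgeR's quasi-likelihood test or DESeq2's Wald test. At an unadjusted p under 0.05 edgeR had 2 of 15 members in NK cells, 4 of 24 in monocytes and macrophages and 4 of 10 in other T cells between genotypes, and 3 of 19 in CD8 T cells and 2 of 10 in other T cells between days.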

How the data were processed

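The deposited values were raw UMI counts per gene and cell, which the authors made with Cell Ranger 2.0.2 on mm10, per the submitters' processing notes. Cells with at least 200 genes, at most 10% mitochondrial and at most 5% haemoglobin UMIs were kept (11222 cells, 48 barcodes removed). Kept UMIs per library ranged from 18691057 to 33825174.

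Classes were gated by minimum marker UMIs (3 for T cells and for monocytes and macrophages, 5 for the other classes, 10 for melanoma, 1 for T cell subsets). These minimums, and the leaving out of the markers Itgae, Ccr7, Bst2, Tcf4, C1q genes, Lyz2, Il2ra, Ikzf2, Ctla4 and Cd8a, were chosen after seeing the data. Cells passing more than 1 gate, or the melanoma gate, were set apart as mixed, and this was the only treatment of doublets.

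Counts were summed per library and state or class and tested with edgeR 4.0.16 (quasi-likelihood F test, TMM, filterByExpr, Benjamini-Hochberg over all genes, threshold 0.05) in R 4.3.3. DESeq2 1.42.0 was an alternative. The standard error is the log2 difference divided by the square root of F. The code was tested on simulated data. By rule, values are given for members with at least 200 UMIs, ordered by histone type, and pathway lists are given by counts. Hist1h1a and Hist2h3b, which have fewer UMIs, and the pathway genes with values fall outside that rule and were chosen after their values were seen. The members and lists were chosen with earlier results of these data known. Gene models came from GENCODE and promoters from RefSeq, both on GRCm38. With 1 library per group, genotype and day results describe only these pools. Their errors come mostly from other genes, because edgeR moves each gene's spread towards that of all genes. The weight of the other genes, as prior degrees of freedom, was 15.04 in CD8 T cells and 35.38 in NK cells. It was infinite in cDC2 and in the fits without a filter, where a gene's own spread between pools has no weight.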

Additional observations from a re-analysis of the deposited data

Results flagged for a closer look

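The knockout to wild-type ratio in CD8 T cells took opposite directions on the 2 days for 2 results. Summed over the histone genes in non-cycling CD8 T cells it was 0.656 on day 9 and 1.33 on day 12. For Hist1h1c in all CD8 T cells it was 0.597 on day 9 and 1.45 on day 12. With 1 library per group the difference between days was not tested.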

How the results depend on the processing

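Members higher in cycling cells numbered 18 in T and NK cells only and 10 in myeloid cells only, where fewer cells and members were tested, and 29 to 38 when 1 library was left out. For G2M over S they numbered 1 in T and NK cells, 3 in myeloid cells and 3 to 8 with 1 library left out, the 3 without the wild-type day 12 library. For both lists over G2M, members higher numbered 3 in T and NK cells, 11 without a filter and 2 to 5 with 1 library left out, and members lower numbered 0 in T and NK cells and 1 to 2 with 1 library left out. For both lists over S they numbered 7 in T and NK cells, 3 in myeloid cells, 27 without a filter, 7 at a threshold of 20 per 10000 UMIs and 8 to 13 with 1 library left out, the 8 without the wild-type day 9 library. Cell type calls numbered 56 without a filter and 20 to 31 with 1 library left out. No share over all genes is given here for these refits, so the counts alone do not show how far they stand from background.

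Members lower in knockout CD8 T cells numbered 3 with DESeq2, 4 with doubled gates, 11 without a filter and 0 in non-cycling cells. The knockout call in cDC2 became 0 with DESeq2, at most 5% mitochondrial UMIs or non-cycling cells. Without a filter, genotype calls in monocytes and macrophages went from 0 to 2 of 60, higher in the knockout, where 1.57% of all genes were. In other T cells they went from 0 to 2 with doubled gates. Without a filter they went to 5 of 57 in other T cells, lower in the knockout, where 0.771% of all genes were. Members higher on day 12 in NK cells numbered 2 with DESeq2, 4 with doubled gates and 1 in non-cycling cells. In cDC2 they numbered 0 with DESeq2, 1 at most 5% mitochondrial UMIs and 1 with doubled gates, and in monocytes and macrophages 4 without a filter and 1 in non-cycling cells. Day calls went from 0 to 1 in CD8 T cells with doubled gates or without a filter, and in other T cells to 1 and 2. Without a filter these were 1 of 62 members lower on day 12 in CD8 T cells (1.01% of all genes) and 2 of 57 higher in other T cells (0.651%). Where fewer cells or more genes entered, that differs by construction, and otherwise the cause was not tested.

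Directions reversed for Hist1h1c (-0.022) and Hist3h2ba (-0.33) with cycling in T and NK cells, Hist4h4 (0.027) at a threshold of 20, Hist2h2be (-0.042 to 0.508 over the libraries left out, below 0 without the knockout day 12 library), and Hist1h2ap (0.10) between genotypes in non-cycling CD8 T cells. Of 264 values for single members with cycle state, 253 kept their direction and side of the threshold, as did 281 of 323 for cell type and 79 of 111 for genotype and day. For genotype and day, no paired analysis was possible because each group has 1 library, whereas the cycle state and cell type fits have the library as a block throughout. Leaving out a library was not run for genotype and day, since no residual degree of freedom would be left.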
